A study of Mus musculus with 27 samples.

Results

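Oxidative phosphorylation is carried out by 5 enzyme complexes of the inner mitochondrial membrane, and the genes for their subunits were described here in mouse brain, meninges and skull before and after ultraviolet irradiation of the skull. The members were the rows of the read-count table whose symbol matched the naming patterns of complex I (Nduf), complex II (Sdh), complex III (Uqcr), complex IV (Cox4 to Cox8), complex V (Atp5) or the subunit genes of mitochondrial DNA (mt-Nd, mt-Cytb, mt-Co, mt-Atp), with 11 symbols ending in -ps left out. This gave 103 of 37095 rows. Of these, 90 are nuclear and 13 are encoded in the mitochondrial genome. The nuclear rows include Cox6c2, Ndufa11b, Ndufb4c and Ndufs6b, which GENCODE M21 annotates as processed pseudogenes. Complexes were assigned by name, so Ndufa4, a complex IV subunit, was counted under complex I. Complex I had 42 nuclear and 7 mitochondrial members, complex II 4 nuclear members and none in mitochondrial DNA, complex III 8 and 1, complex IV 19 and 3, and complex V 17 and 2. The rule used names alone and no measured value, but it was chosen with earlier results of these data known.

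The study measured polyadenylated RNA by bulk sequencing in 9 groups of 3 libraries each. Brain, meninges and skull (the skullcap) were each taken from untreated mice, from mice 0.5 h after UVB light (311 nm, 2 mW) was applied to the interparietal bone, and from mice 24 h after it. The labels call this irradiation photobiomodulation of the skull, and the series title places the work in brain border immunity and recovery after stroke; strain, sex and age were not stated in the labels used here. The sample labels call the controls not treated with UVB, while the design text also speaks of non-cranial photobiomodulation, and whether that phrase means these controls could not be settled from the labels. The meninges were scraped off the skullcap, so remnants of either tissue can be in the other. They do not say whether the 3 replicates of a group were separate animals, so p-values measure only the spread between these libraries, which may be technical. In bulk tissue, fewer cells of a type and less RNA per cell cannot be told apart.

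Complexes I, III and IV pass electrons from NADH to oxygen and pump protons, complex II feeds electrons from succinate into the chain, and complex V (ATP synthase) uses the proton gradient to make ATP. The catalytic core of complexes I, III and IV and part of the membrane motor of complex V are encoded in mitochondrial DNA, transcribed inside the organelle as long precursors that are cut into single messages. The remaining subunits are nuclear, are transcribed one gene at a time and are imported after translation, so the stoichiometry of every complex but complex II depends on both genomes. Neurons rely heavily on this pathway.

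Several mitochondrial members share their sequence with the nuclear genome. A stretch of chromosome 1 (GRCm38, chr1:24611535-24616197) carries an almost perfect copy of part of the mitochondrial genome, annotated in GENCODE M21 as a row of unprocessed pseudogenes, and a read that falls within a copied stretch matches both places. mt-Co2 is identical to its copy Gm28661 over 681 bases, mt-Co3 to Gm28437 over 783, mt-Atp6 to Gm10925 over 678 and mt-Nd4l to Gm10222 over 294. mt-Nd3 differs from Gm28438 at 1 of 345 bases. The first bases of mt-Co2 and mt-Co3, which encode subunits of the complex IV core, are shown because the same letters occur in the nuclear copy (chrM:7013-7072 and chrM:8607-8666, plus strand):
mt-Co2: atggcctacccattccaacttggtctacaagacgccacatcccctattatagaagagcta
mt-Co3: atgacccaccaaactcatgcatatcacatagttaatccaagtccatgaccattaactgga

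These genes stood among the lowest of the mitochondrial members. Per kilobase of transcript, in CPM (read counts scaled to the size of the library), mt-Co2 had 16.5 in untreated brain, mt-Co3 8.65, mt-Atp6 5.65, mt-Nd3 4.001 and mt-Nd4l 0.893. Another 7 mitochondrial members ran from 869 (mt-Nd6) to 9516 CPM per kb (mt-Co1, the catalytic subunit of complex IV), with mt-Cytb, the complex III core protein, at 4063 and mt-Nd1 of complex I at 3054. Of these 7, mt-Nd4 was partly copied, with 876 of its 1378 bases identical to Gm28439, and stood at 992. mt-Co1, the highest, was partly copied too. It shared 51.1% of its 50-base windows, and its longest run identical to Gm29216 was 479 of 1545 bases. mt-Atp8, the remaining one, stood at 0.920 CPM per kb and reached at most 0.39 CPM in any library, although 0% of its 50-base windows occurred in another annotated transcript; no gene was annotated in the stretch of chromosome 1 between Gm10925 and Gm28661. Whether multiply mapping reads were dropped in counting is not given in the sources used here, and their part in these low levels was not tested.

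**Figure D1:**
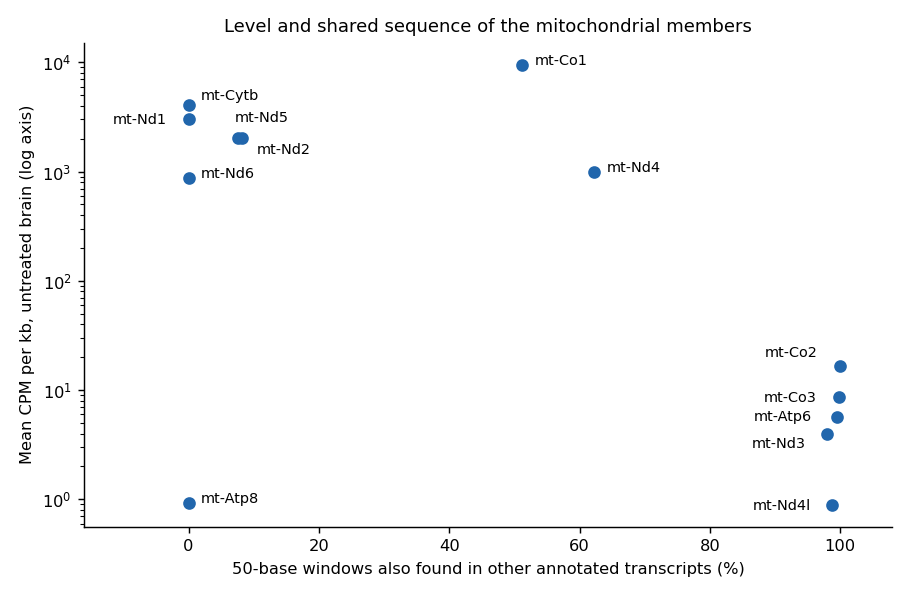
Level of each of the 13 mitochondrial members in untreated brain (mean CPM per kb of transcript, 3 libraries, log axis) against the percent of its 50-base windows that also occur in another annotated transcript. The 5 genes with nearly all windows shared lie between 0.893 and 16.5 CPM per kb, as does mt-Atp8 with 0% shared (0.920), and the other 7 lie at 869 or above.

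The nuclear members share sequence less often. Of 89 with an annotated transcript, 38 had no window in common with another transcript and 31 had more than 10% in common. Atp5l, the g subunit of ATP synthase (chr9:44912557-44920742, minus strand, 544-base transcript), was the tested nuclear member with the largest shared part, 84.9%. Its 309 coding bases are identical to the processed pseudogene Gm10221 (chr5:24581554-24581862). Ndufa12, an accessory subunit of complex I (chr10:94198720-94221443, plus strand), shared 26.2% of its windows, and its pseudogene Gm15920 differs at 2 of 399 aligned coding bases. The stretches below are shown because both genes lead results that follow; the Atp5l letters are the same in Gm10221, and the capital marks the base at which Ndufa12 and Gm15920 differ:
Atp5l: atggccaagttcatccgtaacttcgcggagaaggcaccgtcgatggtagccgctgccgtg
Ndufa12: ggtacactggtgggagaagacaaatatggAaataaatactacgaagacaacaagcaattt
Gm15920: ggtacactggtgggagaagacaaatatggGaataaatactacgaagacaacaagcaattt

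Of the 103 members, 92 passed the filter on low counts in brain (81 nuclear, 11 mitochondrial) and 94 in meninges and in skull (83 and 11). The 9 that passed in no tissue were mt-Atp8, mt-Nd4l and 7 nuclear members below 1 CPM in every library (Cox6c2, Cox7b2, Cox8c, Ndufa11b, Ndufb11b, Ndufb4c and Ndufs6b). Cox7a1 and Cox8b were tested in meninges and skull only. Library totals ran from 14208961 to 27305294 counts; the first untreated brain library held the most and the next highest held 18174269. The summed CPM of 9 neuron markers was 6034 to 7153 in brain libraries, that of 7 meningeal fibroblast markers 12850 to 36180 in meninges and 56250 to 101300 in skull, and that of 6 osteoblast markers 3065 to 5163 in skull, beside 1092 to 2178 in meninges and 12.7 to 20.2 in brain. The fibroblast markers were thus higher in every skull library than in any meninges library.

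The 13 mitochondrial members together took a larger part of brain libraries than of the others. In untreated brain they held 2.98% ± 0.043 of all counts (SD, n = 3), in meninges 1.96% ± 0.238 and in skull 1.74% ± 0.132. The 90 nuclear members held 0.649% ± 0.0448, 0.606% ± 0.0689 and 0.481% ± 0.0411. The ratio of mitochondrial to nuclear counts was 4.601 ± 0.278 in brain, 3.23 ± 0.269 in meninges and 3.63 ± 0.537 in skull. Every brain library had a larger mitochondrial share than every meninges or skull library, whereas the nuclear shares of brain and meninges overlapped. mt-Co1 alone made up 49.1% ± 0.676 of the mitochondrial counts in untreated brain, 43.8% ± 0.297 in meninges and 52.0% ± 1.21 in skull.

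**Figure D2:**
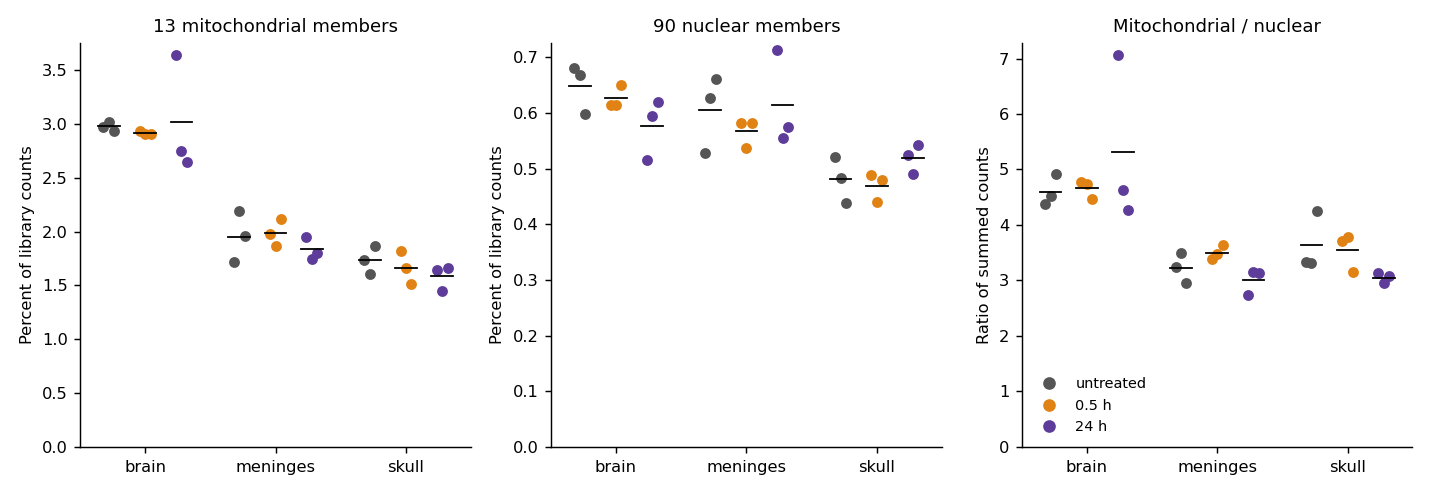
Share of each library's counts held by the 13 mitochondrial members and by the 90 nuclear members (percent), and the ratio of the summed counts, by tissue and time; each point is 1 library and each line the mean of 3. Brain lies above the other tissues in the mitochondrial share, and 1 brain library at 24 h (3.65%, ratio 7.07) stands above its group.

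Per kilobase, the highest nuclear members were parts of complex V and complex IV. Atp5b, the catalytic beta subunit of ATP synthase, stood at 481.9 CPM per kb in untreated brain, 356 in meninges and 320.5 in skull. Atp5a1, the alpha subunit, stood at 265.7, 199.7 and 201.3. Cox8a, a small subunit of complex IV, held 332.7 in brain and 274.3 in meninges, and in skull Cox6a1, also of complex IV, followed Atp5b and Atp5a1 at 196.9. The top nuclear gene thus lay below the 7 well-covered mitochondrial genes in all 3 tissues.

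Untreated tissues were compared in 1 fit over the 27 libraries. The labels do not say whether same-numbered libraries of different tissues came from 1 mouse, and the fit treated them as separate. Against untreated brain, 23 members were higher and 31 lower in untreated meninges, of 94 tested, where 36.8% of all tested genes were higher and 33.7% lower. In untreated skull 18 were higher and 38 lower, against 37.3% and 38.3% of all genes. All 11 tested mitochondrial members were lower in meninges than in brain, with a median log2 fold change of -0.67, and 10 of 11 were lower in skull, with a median of -0.81. mt-Atp6, a proton-channel subunit of complex V, did not pass in skull (log2 fold change -0.54, adjusted p = 0.07154, edgeR quasi-likelihood test with Benjamini-Hochberg adjustment, as for every adjusted p here). The nuclear members were spread about 0, with medians of 0.01 in meninges and -0.06 in skull, beside 0.06 and -0.02 for all tested genes.

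The order of the medians changed with offsets for transcript length and base composition. With offsets for length and GC content, the mitochondrial medians were -0.13 in meninges and -0.18 in skull, and the nuclear medians -0.31 and -0.41, below the mitochondrial ones. Under these offsets 4 mitochondrial members were lower in each tissue (mt-Nd1, mt-Co1 and mt-Co2 in both, mt-Co3 in meninges and mt-Nd5 in skull). mt-Nd6 turned from lower to higher in meninges (0.47, adjusted p = 0.003212) and stood at 0.0050 in skull (adjusted p = 0.9772). All genes then had medians of 0.03 and 0.11. The offsets also changed the split of member calls to 12 higher and 47 lower in meninges and 13 and 50 in skull, and RLE scaling changed it to 18 and 40 in meninges. Among mitochondrial members with at most 10% of windows shared, 5 of 5 were lower in both tissues without the offsets.

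By member, mt-Co1 stood at 14320, 14950 and 14840 CPM in the untreated brain libraries, at 7227, 9466 and 8082 in meninges and at 10260, 9078 and 11500 in skull. Both outer tissues lay below every brain library and overlapped each other. mt-Co1 was lower in meninges (log2 fold change -0.83, SE 0.12, adjusted p = 2.122e-06) and, less far, in skull (-0.52, SE 0.12, adjusted p = 0.0006114). It was higher in skull than in meninges (0.32, adjusted p = 0.03721), a call lost when any of 4 libraries was left out (meninges 1 and 3, skull 1 and 3, adjusted p up to 0.1848). mt-Nd5, a proton-pumping subunit of complex I, fell in the order of the tissues, from 3499 to 3852 CPM in brain to 2306 to 2829 in meninges and 1642 to 2216 in skull. No library of one tissue overlapped another. Its log2 fold change was -0.55 in meninges against brain (adjusted p = 0.000207) and -0.45 in skull against meninges (adjusted p = 0.002759), and skull against brain had an adjusted p of 4.701e-08. With the offsets the call in meninges against brain was lost (-0.13, adjusted p = 0.3365).

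The other mitochondrial genes are given by complex. mt-Cytb of complex III had the smallest difference in both comparisons (-0.29 in meninges, adjusted p = 0.03648, and -0.30 in skull, adjusted p = 0.02786). It lost the call without any 1 of 5 libraries in meninges against brain (each but meninges 2, adjusted p up to 0.1724) and of 4 in skull against brain (brain 1 and 2, skull 1 and 2, up to 0.183). In complex I, mt-Nd1 was at -0.73 in meninges and -0.81 in skull, mt-Nd2 at -0.65 and -0.81, mt-Nd4 at -0.71 and -0.82, and mt-Nd6, the one subunit encoded on the opposite strand, at -0.47 and -0.92. All of these passed, but with the length and GC offsets mt-Nd2, mt-Nd4 and mt-Nd6 did not pass as lower in either tissue, and mt-Nd6 lost its call in meninges without the first meninges library (adjusted p = 0.0543). In complex IV, mt-Co2 was at -0.73 in each and mt-Co3 at -0.67 and -0.51, which passed. The mt-Co3 call in skull was lost without brain 3, skull 1 or skull 2 (adjusted p up to 0.1455), with the offsets and without a filter on low counts. mt-Nd3, at 0.82 to 1.86 CPM in brain, was at -1.20 and -1.05 and passed, but lost the call without any 1 of 3 libraries in meninges against brain (brain 1, meninges 1, meninges 2) and of 4 in skull against brain (brain 1, brain 2, skull 1, skull 2). Its calls were also lost with the offsets (-0.01 and 0.12), and that in skull without a filter or with a replicate block. mt-Atp6 was lower in meninges (-0.63, adjusted p = 0.03671), a call lost with the offsets, without a filter or without any 1 of 5 libraries (each but brain 2, adjusted p up to 0.1455).

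Complex II has no mitochondrially encoded subunit, and its 4 genes went different ways. Sdha, the flavoprotein that oxidises succinate, was 396.5, 430.1 and 421.8 CPM in untreated brain, 263.2, 300.7 and 281.8 in meninges and 223.6, 220.5 and 206.4 in skull, with no overlap between tissues. It was lower in meninges (log2 fold change -0.56, SE 0.07, adjusted p = 2.185e-07) and in skull (-0.94, SE 0.07, adjusted p = 2.313e-11) than in brain. Sdhd, a membrane anchor, was higher in meninges (0.27, adjusted p = 0.0117) and skull (0.59, adjusted p = 2.631e-06), and Sdhc, the other anchor, was higher in meninges (0.58, adjusted p = 9.431e-05) and skull (0.29, adjusted p = 0.02735). Sdhb, the iron-sulfur subunit, did not pass in either (-0.13 and 0.01). The 3 complex II genes that differed between skull and meninges were Sdhd, higher in skull (0.33, adjusted p = 0.004246), and Sdha (-0.38) and Sdhc (-0.29), lower.

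Isoform genes with restricted expression led the members that were higher outside brain. Ndufa4l2, a paralog of the complex IV subunit Ndufa4 known as a target of hypoxia-inducible factors and counted under complex I by its name, was 2.11, 2.41 and 1.46 CPM in untreated brain, 10.2, 14.8 and 10.6 in meninges and 32.8, 24.9 and 32.6 in skull. It was 5.93-fold higher in meninges than in brain (log2 fold change 2.57, SE 0.25), at a log2 fold change of 3.91 (SE 0.26) in skull against brain, and 2.53-fold higher in skull than in meninges. Ndufa4 itself ran from 87.4 to 127 CPM in brain, 74.9 to 111 in meninges and 62.4 to 71.9 in skull, and was lower in skull than in either (-0.65 and -0.51, adjusted p = 0.0003138 and 0.005688). Cox6b2, known as the testis form of a complex IV subunit, was highest in meninges: 11.5, 12.9 and 14.4 CPM there, 8.60, 7.67 and 7.31 in skull and 1.493, 1.497 and 1.013 in brain (log2 fold change 3.26 in meninges, adjusted p = 1.843e-11, and 2.54 in skull, adjusted p = 1.295e-09). Its widely expressed partner Cox6b1 did not pass in either (-0.20 and -0.24).

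Cox4i2, the lung and hypoxia form of the complex IV regulatory subunit, was 0.98 to 1.37 CPM in brain, 3.37 to 5.01 in meninges and 5.26 to 7.46 in skull, which did not overlap (log2 fold change 1.92, SE 0.30, and 2.49, SE 0.30). Its partner Cox4i1 did not pass (0.01 and -0.28). Ndufb8, an accessory subunit of complex I, was 1.44 ± 0.215 CPM in brain (SD, n = 3), 5.95 ± 1.12 in meninges and 5.43 ± 0.881 in skull (2.05, adjusted p = 1.132e-05, and 1.91, adjusted p = 2.463e-05); 134 of its exon bases are shared with Gm20538 on the same strand. Both genes kept their call without any 1 of the untreated libraries.

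The heart and skeletal muscle forms Cox6a2, Cox7a1 and Cox8b differed widely between libraries of 1 group. Cox6a2 stood at 0.50, 24.5 and 0.50 CPM in the 3 untreated meninges libraries, at 5.11, 0.31 and 10.5 at 0.5 h and at 0.33, 0.44 and 0.46 at 24 h. The summed CPM of 12 skeletal muscle markers, none of them members, was 6075 in the second untreated meninges library, 1348 and 3049 in the 0.5 h libraries 1 and 3 and 10.2 to 111 in the other 6. In skull the markers summed to 1174 to 6558 CPM and Cox6a2 to 6.56 to 26.3, and in brain to 27.01 to 47.3 and 1.69 to 4.33. Their part in the levels of the muscle forms was not tested. Cox6a2 did not pass in skull against brain (2.00, adjusted p = 0.08049). Cox7a1 and Cox8b passed the filter on low counts only through meninges and skull, where they are higher, so their levels are given without a test. They are among the members counted as higher in both comparisons with brain. Untreated, Cox7a1 stood at 0.39 to 0.70 CPM in brain, at 0.75, 4.19 and 1.45 in meninges and at 6.98, 3.215 and 1.79 in skull. Cox8b stood at 0.04, 0 and 0.19 CPM in brain, 0.25 to 4.57 in meninges and 1.19 to 5.24 in skull.

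**Figure D3:**
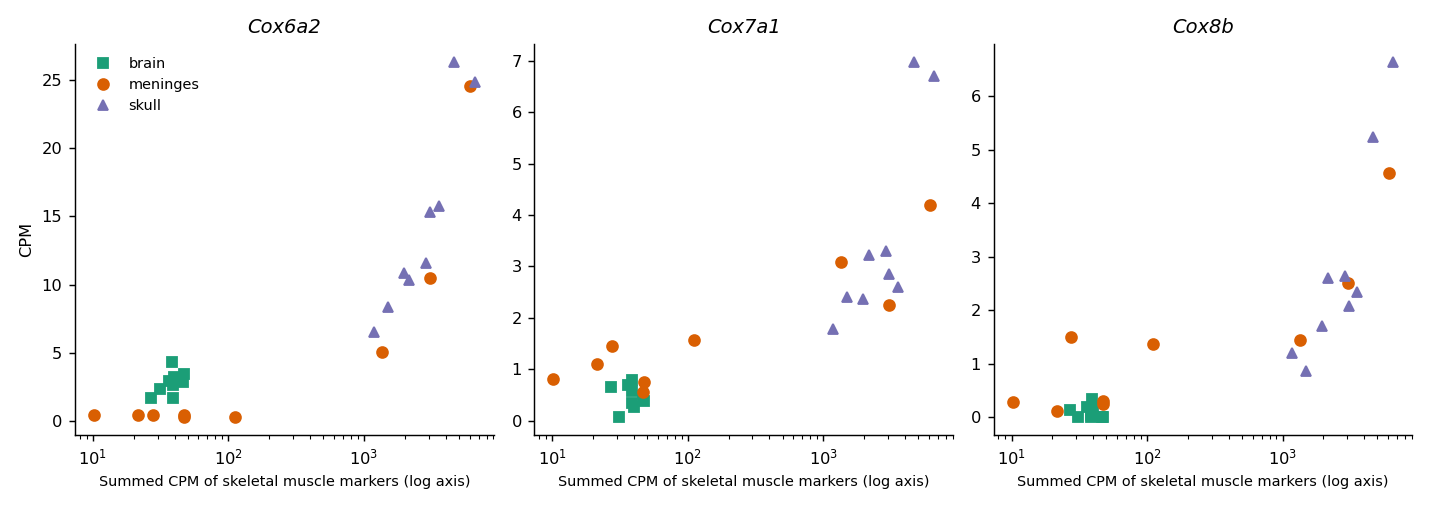
CPM of the muscle forms Cox6a2, Cox7a1 and Cox8b (vertical axis) against the summed CPM of 12 skeletal muscle markers (log axis) in each of the 27 libraries, by tissue. The 3 meninges libraries with marker sums of 1348, 3049 and 6075 have the highest Cox6a2 of that tissue.

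The partners of these forms, Cox6a1, Cox7a2 and Cox8a, were lower in skull than in brain. Cox8a was lower in skull (-0.78, adjusted p = 3.402e-05) but did not pass in meninges (-0.28, adjusted p = 0.08355). Cox6a1 was lower in both (-0.39 and -0.38), and Cox7a2 in skull (-0.38). Cox7a2l, which is known for joining complexes III and IV into supercomplexes, was higher in both (0.29, adjusted p = 0.00759, and 0.43, adjusted p = 0.000219).

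Among the members lowest outside brain, Ndufa12 stood at 40.7, 41.8 and 30.1 CPM in brain, at 18.5, 15.02 and 32.5 in meninges and at 13.6, 13.9 and 12.8 in skull. Its log2 fold change was -0.77 (adjusted p = 0.005865) in meninges, where 1 library overlapped the brain values, and -1.48 (SE 0.24, adjusted p = 8.568e-06) in skull, where none did. Ndufb2, a complex I accessory subunit whose exons overlap genes on both strands, was also lower (-0.86 and -1.26). Between skull and meninges 5 members were higher in skull and 17 lower, of 94, beside 21.6% and 26.5% of all genes. Besides those given above, Atp5e, the epsilon subunit of ATP synthase (0.46, adjusted p = 0.01847), and Ndufb7 of complex I (0.29, adjusted p = 0.04036) were higher in skull, while Atp5k (-0.87), Cox6b2 (-0.72), Ndufa12 (-0.71), Atp5g1, a form of the membrane c-ring (-0.67), and Ndufv3 (-0.59) were lower. The Ndufb7 call was lost without any 1 of 5 libraries (only the third meninges library could be left out), that of Atp5e without the first meninges or first skull library (adjusted p up to 0.1069) and that of Ndufa12 without meninges 3 or skull 3 (up to 0.2616). Without the third skull library 13 members passed in all. With offsets for length and GC content the split was 8 higher and 14 lower, and the median of all genes moved from -0.04 to 0.13.

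At 0.5 h after UVB no member passed in brain, where 0.00550% of all tested genes did, and 2 members had an unadjusted p under 0.05. DESeq2 also passed 0. The medians were -0.07 for nuclear and -0.04 for mitochondrial members. The 4 members nearest the threshold, none of which passed, were Atp5mpl (log2 fold change -0.32), Ndufb1 (-0.50), Cox7c (-0.40) and Cox6a2 (-0.58), with adjusted p of 0.9298 to 0.9465.

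At 24 h in brain 10 members were lower and none higher, of 92 tested, against 1.42% of all tested genes that were lower. All 10 were nuclear: 4 of complex I, 3 of complex IV and 3 of complex V. Of the 92 members, 45 had an unadjusted p under 0.05 and 79 a log2 fold change below 0. The nuclear median was -0.33, the mitochondrial median 0.02 and that of all genes -0.00. By complex the nuclear medians were -0.28 (complex I), -0.07 (complex II), -0.41 (complex III), -0.44 (complex IV) and -0.21 (complex V). No mitochondrial member passed; mt-Nd4 (0.20, adjusted p = 0.2147) had the smallest p of them. mt-Nd6 (-0.30, adjusted p = 0.2794) was lower with the length and GC offsets (-0.38, adjusted p = 0.0375), without a filter on low counts (-0.29, adjusted p = 0.006701) and without the first 24 h library.

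Ndufa12 led the 10. It stood at 40.7, 41.8 and 30.1 CPM in the untreated brain libraries, at 34.1, 37.9 and 42.8 at 0.5 h and at 25.6, 21.6 and 19.0 at 24 h. Every 24 h library lay below every library of both earlier groups. The log2 fold change was -0.77 (SE 0.14, adjusted p = 0.008287), a fall to 0.585 of the untreated level, and it passed in all 9 fits that left out 1 library and under the 6 other settings tried. Against 0.5 h the change was -0.80 (adjusted p = 0.01999), and Ndufa12 was then the only member to pass, beside 0.132% of all genes that were lower; that call was lost without any 1 of 5 libraries (each 0.5 h library, 24 h 2 and 24 h 3; adjusted p up to 0.08668), which left 0 members.

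Among the 10 were 3 other complex I subunits. Ndufa5, an accessory subunit of the matrix arm, stood at 30.9, 29.6 and 25.8 CPM untreated, 29.3, 27.4 and 28.4 at 0.5 h and 18.2, 20.6 and 20.9 at 24 h (log2 fold change -0.54, SE 0.11, adjusted p = 0.0174). Ndufa1, a small membrane-arm subunit needed for assembly of the complex, stood at 21.6, 19.8 and 12.8 CPM, then 15.6, 12.8 and 14.7, then 8.02, 11.1 and 10.4 (-0.88, SE 0.19, adjusted p = 0.01983). Ndufb7, of the membrane arm, had 41.2, 37.4 and 34.9 CPM untreated and 20.9, 27.2 and 30.6 at 24 h (-0.53, SE 0.12, adjusted p = 0.03047). In each of these the 24 h libraries lay below all untreated and all 0.5 h ones, for Ndufb7 by a narrow margin (30.6 against 30.8 CPM).

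In complex V the genes that fell were small membrane-sector subunits. Atp5md (also known as DAPIT) had 46.1, 42.0 and 34.2 CPM untreated and 21.7, 28.3 and 30.9 at 24 h (-0.60, SE 0.13, adjusted p = 0.02151). Atp5mpl had 28.2, 26.5 and 21.1 and then 14.5, 16.3 and 19.3 (-0.61, SE 0.14, adjusted p = 0.02761). Atp5j2, the f subunit, had 69.3, 55.4 and 53.0 and then 37.4, 48.3 and 44.4 (-0.46, SE 0.11, adjusted p = 0.03666). The groups did not overlap in any of the 3, and the first 24 h library was the lowest each time.

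In complex IV, Cox5b had 117.9, 112.3 and 96.1 CPM untreated and 67.8, 81.3 and 90.6 at 24 h (-0.45, SE 0.10, adjusted p = 0.03087). Cox5a (-0.48, adjusted p = 0.04263) and Cox7a2 (-0.39, adjusted p = 0.03749) completed the 10. All of these encode nuclear subunits that surround the mitochondrial core of the enzyme. The core genes mt-Co1 (-0.01), mt-Co2 (0.09) and mt-Co3 (0.12) did not pass, with adjusted p of 0.8128 or more. In complex II the values were nearest 0 and no gene passed, with Sdha at 396.5, 430.1 and 421.8 CPM untreated and 381.3, 409.2 and 423.2 at 24 h.

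**Figure D4:**
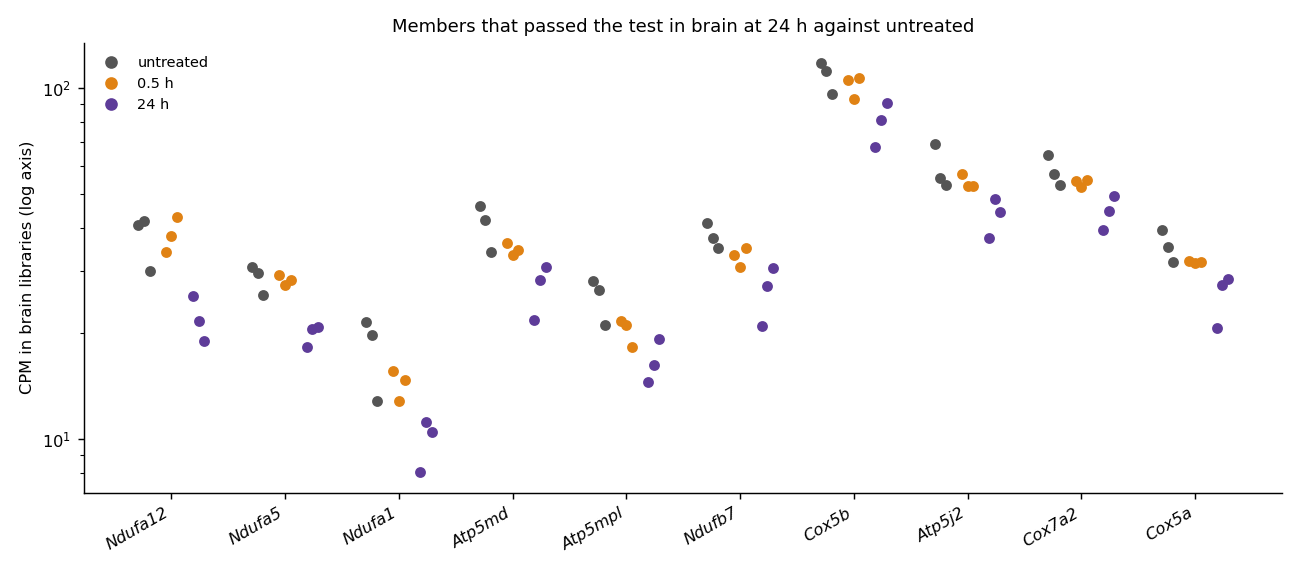
CPM (log axis) of the 10 members that passed the test in brain at 24 h against untreated, in each of the 9 brain libraries; points are single libraries coloured by group. For every gene the 3 libraries at 24 h lie below the 3 untreated ones.

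The calls depended on single libraries. Ndufa5, Ndufa1 and Atp5md lost theirs without untreated 1, untreated 2 or 24 h 1, and Atp5mpl, Ndufb7 and Cox5b also without 24 h 2. Atp5j2 lost its call without any 1 of 6 libraries (untreated 1 and 2, 0.5 h 2 and 3, 24 h 1 and 3; adjusted p up to 0.1921). The count was 1 without the first or the second untreated library, 3 without the first 24 h library, 6 without the second, 16 without the third and 19 without the third untreated library; it was 18 with DESeq2 and 31 without a filter on low counts. The brain libraries also differed in transcripts of under 1000 bases, among which 56 nuclear members fall (median of nuclear members 809 bases, of genes tested in brain 2952.5). In the first and second untreated libraries such short transcripts of any gene lay 0.11 and 0.10 above their mean over the brain libraries (median, log2), and in the first 24 h library 0.06 below. At 24 h short nuclear members had a median log2 fold change of -0.44, all tested genes under 1000 bases -0.12, and nuclear members of 1000 bases or more -0.12. With offsets for length and GC content 8 members passed, 1 of them mt-Nd6, and Atp5mpl and Ndufb7 did not. The nuclear median was then -0.25 and the mitochondrial median -0.06. Of 54 nuclear members with at most 10% of windows shared, 7 passed.

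The first 24 h brain library stood apart in both genomes. Its mitochondrial members held 3.65% of counts against 2.75% and 2.65% in the other 24 h libraries, and its nuclear members 0.516% against 0.596% and 0.619%. The ratio was 7.07 there and 4.62 and 4.28 in the others, beside 4.37 to 4.91 in the untreated brain libraries. The mean log2 change of this ratio of summed counts from untreated to 24 h was 0.18 with this library and -0.05 without it. A few abundant genes weigh most in such sums. The log2 ratio taken from medians over members was 4.88, 4.85 and 5.18 in the untreated brain libraries. At 24 h it was 5.98, 5.38 and 4.95, so the second 24 h library also lay above all untreated ones by that measure.

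Few genes around the chain passed in brain at 24 h, where 477 of all 18172 tested genes passed and 1.42% were lower. With lists this short, nothing is read from their counts beside those of all genes. Of 42 tested assembly factors none passed (median -0.03), nor did any of 15 other chain and carrier genes (-0.09), 23 genes of mitochondrial gene expression (0.02), 16 regulators of mitochondrial biogenesis (0.07) or 21 genes of the citric acid cycle (-0.02). Of 22 glycolysis genes 1 passed, Pfkfb3, which makes the activator of phosphofructokinase (-0.45, adjusted p = 0.007051). These lists were chosen with earlier results of the data known.

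In meninges no member passed at 0.5 h, where 0.874% of all genes did; 14 of 83 nuclear members had an unadjusted p under 0.05, and DESeq2 passed 1, Atp5l. The nuclear median was -0.20 and the mitochondrial median -0.09. The 4 nearest members, which did not pass, were Atp5l (-0.69, adjusted p = 0.1097), Ndufb7 (-0.35, adjusted p = 0.2056), Ndufa2 (-0.45) and Cox5b (-0.33).

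At 24 h in meninges 2 members were lower and none higher, of 94, against 4.45% of all genes that were lower. Atp5l stood at 14.1, 14.97 and 13.96 CPM untreated, 10.4, 6.61 and 9.38 at 0.5 h and 6.70, 6.07 and 6.23 at 24 h. The 3 groups did not overlap except that 1 library at 0.5 h lay within the 24 h range. The log2 fold change at 24 h was -1.16 (SE 0.18, adjusted p = 0.003794), a fall to 0.448 of the untreated level. Cox7a2l stood at 86.5, 94.3 and 104 CPM untreated and 77.0, 68.4 and 72.1 at 24 h (-0.36, SE 0.09, adjusted p = 0.03101); its call was lost without any 1 of 5 libraries (untreated 2 and 3, 0.5 h 2, 24 h 2 and 24 h 3; adjusted p up to 0.1121), which left Atp5l alone.

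Members that did not pass in meninges at 24 h included Atp5g2, another c-ring gene (0.56, adjusted p = 0.1347), Ndufb3 (-0.25), Ndufc2 (-0.28) and mt-Nd5 (-0.28, adjusted p = 0.1751). The mitochondrial median was -0.17, with 10 of 11 below 0, and the nuclear median -0.12. Choroid plexus markers (5 of 5 found) differed widely between these libraries, with sums of 85.9, 4369 and 5738 CPM untreated, 4198, 3027 and 3032 at 0.5 h and 12430, 103.1 and 3334 at 24 h. In the same libraries the nuclear members lay, as a median log2 distance from their mean over the 9, at -0.10, 0.19 and 0.23, then -0.03, -0.14 and -0.03, then 0.16, -0.14 and -0.10. The part of these cells in the meninges results was not tested. Between 0.5 h and 24 h no member passed, beside 2.34% of all genes; 3 members had an unadjusted p under 0.05, and DESeq2 also passed 0. The muscle forms Cox6a2 and Cox8b had the lowest values at 24 h (log2 fold change -4.36 and -1.82) and did not pass; the muscle markers named above were high in 1 untreated library and in no 24 h library.

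In skull 5 members were lower at 0.5 h and none higher, of 94, against 2.94% of all genes that were lower. They were Ndufb7 (-0.40, SE 0.08, adjusted p = 0.02156), Ndufa13, a complex I subunit (-0.39, adjusted p = 0.02783), Atp5e (-0.41, adjusted p = 0.03449), Cox8a (-0.31, adjusted p = 0.03667) and Atp5d, the delta subunit of ATP synthase (-0.32, adjusted p = 0.03958). Ndufb7 stood at 65.7, 59.5 and 61.8 CPM untreated, 44.9, 47.5 and 50.4 at 0.5 h and 49.6, 52.0 and 55.1 at 24 h, with both irradiated groups below every untreated library. Ndufa13 stood at 63.4, 59.2 and 65.8, then 49.7, 47.3 and 47.4, then 56.2, 52.3 and 47.8; 375 of its exon bases lie opposite Tssk6. The nuclear median was -0.21 and that of all genes under 1000 bases -0.14.

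These calls rested on single libraries. With offsets for length and GC content 0 members passed. The count was 0 without skull untreated 1, untreated 3, 0.5 h 1 or 0.5 h 2, 2 without 0.5 h 3 or 24 h 1, 3 without 24 h 3, and 10 without untreated 2. DESeq2 passed 9.

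At 24 h in skull 5 members were lower and none higher, of 94, against 10.4% of all genes that were lower. Atp5l stood at 15.9, 17.2 and 20.0 CPM untreated, 12.1, 10.1 and 14.0 at 0.5 h and 5.75, 9.01 and 8.46 at 24 h, with no overlap between the 3 groups (-1.19, SE 0.19, adjusted p = 0.001281, a fall to 0.439). Cox7a2l stood at 103, 102 and 108.2 CPM, then 83.7, 88.0 and 94.8, then 83.1, 73.4 and 76.8, again with no overlap (-0.42, SE 0.08, adjusted p = 0.003331). Ndufv3, of the NADH-binding module of complex I (-0.37, adjusted p = 0.02253), Ndufa4l2 (-0.50, adjusted p = 0.04408) and Ndufa13 (-0.26, adjusted p = 0.04807) were the others. With offsets for length and GC content 1 member was higher and 3 lower.

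Atp5l and Cox7a2l kept their calls in skull without any 1 of 9 libraries, as Atp5l did in meninges. Ndufv3 lost its call without untreated 1 or any 24 h library, Ndufa4l2 without any library but untreated 2 and 24 h 1, and Ndufa13 without any but untreated 2 (adjusted p up to 0.1729). The count was 2 without skull untreated 1 or 24 h 3, 3 without untreated 3, 0.5 h 2 or 24 h 1, and 9 without untreated 2. The nuclear median was -0.05 and the mitochondrial median -0.13, with mt-Nd6 nearest the threshold (-0.36, adjusted p = 0.05205). mt-Nd6 was lower with RLE scaling (adjusted p = 0.0475), with DESeq2 (adjusted p = 0.0321), without a filter on low counts, where mt-Co1 was also lower (-0.26, adjusted p = 0.04583), and without the second untreated library. Blood cell markers moved in the same libraries. The 7 erythroid markers summed to 5890 to 6556 CPM untreated, 6057 to 9653 at 0.5 h and 3262 to 5138 at 24 h, with every 24 h library below all others. The 6 neutrophil markers summed to 4347 to 8904, 5610 to 8725 and 3342 to 5298, so that the 24 h libraries lay below those at 0.5 h. Their part in the skull results at 24 h, against untreated or 0.5 h, was not tested.

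Because the coding bases of Atp5l and Gm10221 are identical, the pseudogene's own counts were read beside it. Gm10221 stood at 8.88, 12.4 and 9.74 CPM in untreated meninges and 11.9, 8.67 and 9.40 at 24 h, and at 12.4, 9.40 and 11.04 in untreated skull and 11.01, 9.01 and 10.6 at 24 h. These ranges overlapped, while those of Atp5l did not. How reads were divided between the 2 genes is not given, and its part in the Atp5l values was not tested. Atp5l in brain stood at 7.69, 9.11 and 7.15 CPM untreated and 10.8, 6.08 and 7.67 at 24 h, which overlapped. Gm10221 in brain stood at 11.15, 8.33 and 6.20 CPM untreated and 4.59, 4.39 and 8.71 at 24 h, which overlapped too. In the first 24 h brain library Atp5l was thus at 10.8 CPM and Gm10221 at 4.59. The part of the pseudogene in the Atp5l differences between tissues was not tested. Cox7a2l shared 17.7% of its windows with the processed pseudogene Gm6969. Gm6969 stood at 0.56, 0.65 and 0.39 CPM in untreated meninges and 1.74, 1.27 and 1.79 at 24 h. In skull it stood at 0.78, 0.49 and 0.37 untreated and 0.73, 0.67 and 1.04 at 24 h. Its part in the Cox7a2l values was not tested.

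**Figure D5:**
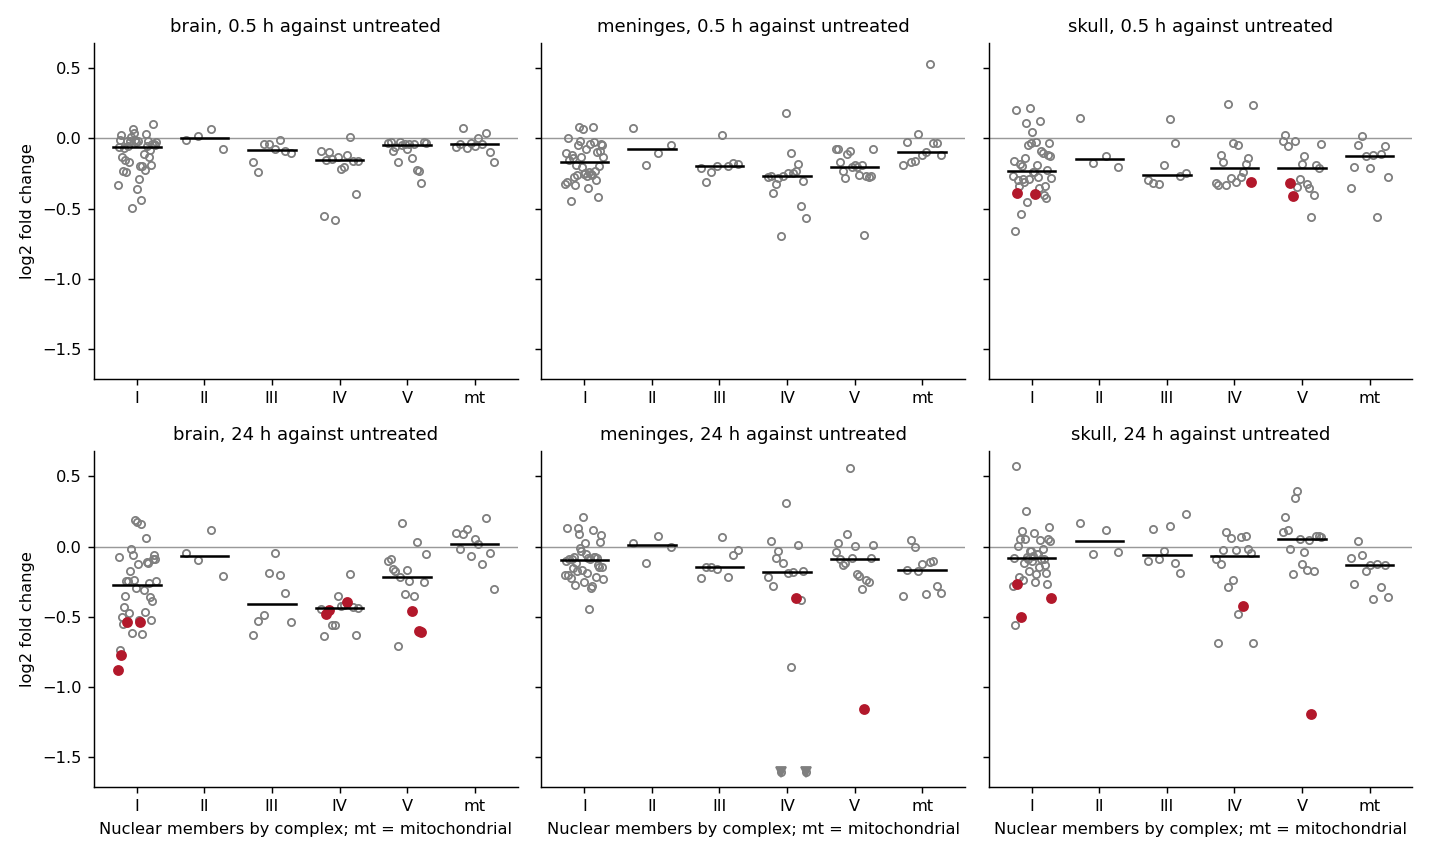
log2 fold change of each tested member against untreated at 0.5 h (top) and 24 h (bottom) in brain, meninges and skull; nuclear members are placed by complex (I to V) and mt marks the mitochondrial members. Filled red points passed the test, open grey points did not, black lines are medians, and the 2 triangles in meninges at 24 h are Cox6a2 (-4.36) and Cox8b (-1.82), which lie below the axis; in brain at 24 h the complex IV median is -0.44 and the mitochondrial median 0.02.

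Between 0.5 h and 24 h in skull 11 members were higher and 1 lower, of 94, where 8.39% of all genes were higher and 7.74% lower. Nothing is read from these counts beside the shares of all genes. Of the 11, 2 were of complex III, 5 of complex IV and 4 of complex V. Uqcrq, a subunit of complex III next to cytochrome b, stood at 54.7, 47.7 and 54.7 CPM at 0.5 h and 66.3, 76.2 and 74.6 at 24 h, and 70.3, 55.8 and 59.7 untreated (0.48, SE 0.10, adjusted p = 0.008704). The 24 h group lay above the 0.5 h group and overlapped the untreated one. Cox6a1 (0.43, adjusted p = 0.0147), Atp5g3, a c-ring gene (0.35, adjusted p = 0.02147), Atp5d (0.30, adjusted p = 0.02202) and Uqcr11 of complex III (0.44, adjusted p = 0.02287) followed. Atp5l was the 1 that was lower (-0.63, adjusted p = 0.0418), a call lost without any 1 of 5 libraries (untreated 1, 0.5 h 1 and 3, 24 h 1 and 3; adjusted p up to 0.1554). This comparison shares its 24 h and 0.5 h libraries with those against untreated skull.

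Uqcrq alone of the first 5 passed without any 1 of 9 libraries. The count was 2 without 0.5 h 2 or 24 h 3, 3 without 0.5 h 1 or 24 h 1 and 4 without 0.5 h 3. The nuclear median was 0.16 and the mitochondrial median -0.07. Beside the members, 9 of 22 glycolysis genes were higher (median 0.25) and none lower, where 8.39% of all tested genes were higher and 7.74% lower. Among the 9 were Pkm, pyruvate kinase (0.69, adjusted p = 0.001267), Pgam1 (0.53), Eno1, an enolase (0.57), and Ldha, lactate dehydrogenase (0.48).

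Outside the subunits, a few genes of mitochondrial regulation and gene expression passed at 24 h in meninges and skull, where 3.97% and 10.6% of all tested genes were higher. Pprc1, a coactivator of the PGC-1 family, was higher in meninges (1.19, SE 0.14, adjusted p = 0.0007896) and skull (1.01, SE 0.09, adjusted p = 3.342e-05), and both changes exceeded that in brain (difference 0.99, adjusted p = 0.006487, and 0.82, adjusted p = 0.007944). Fastkd3, a mitochondrial RNA-binding protein, was higher in both (0.84 and 1.15), as were Ndufab1, the acyl carrier protein that is also a complex I subunit (0.55 and 0.61), and Idh2, mitochondrial isocitrate dehydrogenase (0.37 and 0.45). In skull 4 of 23 genes of mitochondrial gene expression were higher and none lower, the others being Polrmt, the mitochondrial RNA polymerase (0.54), Twnk, the replicative helicase (0.49), and Fastkd1 (0.55). In meninges Fastkd3 was the only 1 of 23, and Pprc1 the only regulator of 16 that was higher there. With so few genes nothing is read from these counts beside the shares of all genes. Of 43 assembly factors, Tmem126b was higher in meninges (0.57), and Taco1 (0.86) and Ndufaf4 (0.60) in skull.

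Of the regulators, Nrf1, the nuclear respiratory factor of many subunit genes, was lower in skull at 24 h (-0.33, adjusted p = 0.03206). Ucp2, an uncoupling protein family member, was lower there too (-0.47, adjusted p = 0.02321), and Slc25a5, an ADP/ATP carrier, was higher (0.31). In the citric acid cycle list Fh1 was also higher (0.35) and Pdhb (-0.29) and Mpc2 (-0.39) lower. Among glycolysis genes in skull 4 of 22 were higher (Pkm, Eno1, Ldha, Eno2) and 2 lower (Pfkp and Ldhb), and in meninges Slc2a1 (-0.53) and Pdk4 (-1.76) were lower. Of all tested genes at 24 h, 10.6% were higher and 10.4% lower in skull, and 4.45% were lower in meninges.

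Between untreated tissues the lists around the chain are given beside the shares of all tested genes, 36.8% higher and 33.7% lower in meninges than in brain and 37.3% and 38.3% in skull. Of 43 assembly factors 4 were higher and 20 lower in meninges (median -0.28), and 5 and 21 in skull (-0.31). Of 21 citric acid cycle genes 2 were higher and 15 lower in meninges (-0.41), and 3 and 15 in skull (-0.49). Of 22 glycolysis genes 2 were higher and 15 lower in meninges (-0.88), and 4 and 18 in skull (-0.94). Of 15 other chain and carrier genes 1 was higher and 7 lower in meninges (-0.30), and 2 and 5 in skull (-0.13). Of 23 genes of mitochondrial gene expression 3 and 8 (-0.14) compare with 7 and 11 in skull (0.14), and of 16 regulators 5 and 7 (-0.26) with 8 and 8 (-0.04). Ppargc1a, the coactivator PGC-1 alpha, was lower in meninges (-3.11, SE 0.26) and skull (-4.54, SE 0.29), while Gabpa, the DNA-binding part of nuclear respiratory factor 2, was higher (1.15 and 1.27). Ucp2 was higher in both (3.52 and 4.601).

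The 24 h changes were also compared between tissues by the difference of the changes in the 27-library fit. Mean Atp5l in brain was 7.98 CPM untreated and 8.19 at 24 h. Its 24 h change was lower in meninges than in brain (difference -1.22, SE 0.29, adjusted p = 0.0326). It was the only member to pass, beside 0.716% of all genes with a lower difference. That call was lost without any 1 of 7 libraries (brain untreated 1 and 3, brain 24 h 1, meninges untreated 1 and 2, meninges 24 h 2 and 3; adjusted p up to 0.1121), leaving 0. In skull against brain 4 members had a higher difference and 1 a lower, where 3.33% and 3.39% of all genes did. Atp5l was the lower one (-1.23, SE 0.29, adjusted p = 0.01029) and kept its call without any 1 of 12 libraries.

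The 4 members with a higher difference in skull than in brain were Ndufa12 (1.33, SE 0.34, adjusted p = 0.01899), Uqcrq (0.76, adjusted p = 0.03278), Ndufa5 (0.64, adjusted p = 0.03376) and Cox6a1 (0.64, adjusted p = 0.03638). Ndufa12 stood at 13.6, 13.9 and 12.8 CPM in untreated skull and 17.3, 20.3 and 22.1 at 24 h, with no overlap and a change in skull alone that did not pass (0.57, adjusted p = 0.06605). The count fell to 1 without skull 24 h 3 (which also took Ndufa12 to adjusted p = 0.05033), to 2 without brain untreated 1 or 2 or brain 24 h 1 or 2, and to 3 without skull untreated 2 or 3. Uqcrq lost its call without any 1 of 8 libraries (brain untreated 1 and 2, brain 24 h 1 and 2, skull untreated 2 and 3, skull 24 h 2 and 3; adjusted p up to 0.09557). Ndufa5 lost its call in 8 (the same brain libraries, each untreated skull library and skull 24 h 3; up to 0.1099) and Cox6a1 in 7 (the same brain libraries, skull untreated 2, skull 24 h 1 and 3; up to 0.1041). The nuclear members had a median difference of 0.22 and all 11 mitochondrial members a negative one (median -0.19), none of which passed. Between skull and meninges no member passed, beside 0.633% of all genes; 3 members had an unadjusted p under 0.05, and DESeq2 passed 0.

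Nuclear subunit genes are known targets of a few transcription factors, and their promoters were searched for the matching letters. Windows from 250 bases before to 50 after the start were taken from RefSeq (GRCm38.p6) for 69 nuclear members, in 74 windows, and searched on both strands. The NRF1 site GCGCANGCG was present in 28.4% of members' windows and 6.25% of all 32851, the ETS site CCGGAAG read by GABPA in 23.0% and 8.86%, the YY1 site AAGATGGCG in 9.46% and 1.4%, the estrogen-related receptor site TCAAGGTCA in 2.70% and 0.423%, and the CCAAT box in 41.9% and 37.4%. In windows of other genes tested in brain the first 3 shares were 11.2%, 14.7% and 2.41%. The estrogen-related receptor site was in 2 of the 74 members' windows. At least 1 of NRF1, ETS and YY1 was present in 37 of the 74 members' windows and in 14.8% of all windows. That combined share was not taken for other genes tested in brain, where each of the 3 sites was commoner than in all windows.

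Of the 26 members that passed in any comparison with UVB or difference between tissues, 22 had a window and 13 held at least 1 of these 3 sites. Over all members the sites were counted by window (37 of 74) and not by gene, so nothing is read from this count. The stretches below come from members that passed, chosen to show each of the 3 sites in genes of complexes I, III, IV and V, with the matched letters in capitals; a match describes the sequence only. They lie at chr6:24527698-24527727 (Ndufa5, NRF1), chr10:80406808-80406837 (Uqcr11, NRF1), chr5:115348957-115348986 (Cox6a1, ETS), each on the minus strand, chr8:83566726-83566755 (Ndufb7, ETS, plus strand), and, on the minus strand, chr19:7217604-7217633 (Cox8a, ETS) and chr5:145191500-145191529 (Atp5j2, YY1):
Ndufa5: ttgtgtgagctGCGCAGGCGcaaatctacc
Uqcr11: gatcgccttcaCGCATGCGCtatacgtctg
Cox6a1: tccccatttccgCTTCCGGcgcgccggtgt
Ndufb7: agcctagatgacCCGGAAGacactgaaggg
Cox8a: atttccgaaataCTTCCGGctcgggcgtcc
Atp5j2: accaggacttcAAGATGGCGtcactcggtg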

How the data were processed

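RNA from 27 mouse libraries (3 tissues, 3 treatment groups, 3 each) was extracted with TRIzol and selected for poly(A), per the labels' protocols. The authors deposited 1 table of read counts per gene, whole numbers that were not normalised, with gene symbols as row names. HISAT2 2.1.0 and mm10 are named in the submitters' processing notes. No source used here gives the counting tool, its annotation, its strand setting or its handling of multiply mapping reads.

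Counts were tested with the quasi-likelihood test of edgeR 4.0.16 (limma 3.58.1, R 4.3.3) after TMM scaling and filterByExpr (minimum count 10, minimum total 15), in 1 fit of 9 libraries per tissue for the UVB comparisons and 1 fit of 27 libraries for untreated tissues and differences of the 24 h changes. Adjusted p is Benjamini-Hochberg over all tested genes, with a threshold of 0.05 for "passed", "higher" and "lower". SE is the size of the log2 fold change divided by the square root of F. CPM values use the TMM totals of the 27-library fit; percentages of a library use plain totals. The test was tested on simulated data before use.

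Transcript lengths, exon overlaps and shared 50-base windows came from GENCODE M21 (33743 rows matched, 102 of 103 members); promoters came from RefSeq. Totals of 14208961 to 27305294 counts limit genes near 1 CPM to few reads. Alternatives were RLE scaling, TMM without mitochondrial and haemoglobin genes, no filter, a replicate block, offsets for transcript length and GC, DESeq2 1.42.0 and leaving out each library.

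Members and lists were chosen with earlier results of these data known. Named by rule were all mitochondrial members, tissue isoforms with their partners, the 4 Sdh genes, up to 8 passing members per direction by p against untreated (with the 4 nearest where fewer than 4 passed), 5 per direction for 24 h against 0.5 h and differences between tissues, the 6 largest per direction between untreated tissues, the 3 highest per kilobase in each genome, and up to 4 passing genes per list. Cox5a and Cox7a2 in brain at 24 h fall outside it and were named to complete the 10.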

Additional observations from a re-analysis of the deposited data

Results flagged for a closer look

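The 24 h change of 6 member and tissue pairs differed between tissues by a test of the difference itself (interaction in the edgeR fit over 27 libraries, adjusted p under 0.05). Of all tested genes, 0.716% had a lower difference in meninges minus brain. In skull minus brain 3.33% had a higher and 3.39% a lower one, and nothing is read from the count of members beside these shares. Atp5l, with the meninges change minus the brain change, was at -1.22 (adjusted p = 0.0326), and with skull minus brain at -1.23 (adjusted p = 0.01029). Ndufa12 in skull minus brain was at 1.33 (adjusted p = 0.01899), Uqcrq at 0.76 (adjusted p = 0.03278), Ndufa5 at 0.64 (adjusted p = 0.03376) and Cox6a1 at 0.64 (adjusted p = 0.03638). Each of these stands in the results with its libraries; the cause was not tested.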

How the results depend on the processing

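The number of members that passed moved by more than 1.5 times under these settings: in brain at 24 h it was 10, and 31 without a filter on low counts, 18 with DESeq2 and 6 with a replicate block; in brain between 0.5 h and 24 h it was 1, and 8 without a filter, 2 with length and GC offsets and 2 with DESeq2; in meninges at 0.5 h 0, and 1 with DESeq2; in meninges at 24 h 2, and 1 with a replicate block and 4 with DESeq2; in skull at 0.5 h 5, and 8 without a filter, 2 with a replicate block, 0 with the offsets and 9 with DESeq2; in skull at 24 h 5, and 8 without a filter; in skull between 0.5 h and 24 h 12, and 7 with a replicate block; in untreated skull against meninges 22, and 14 without a filter. Leaving out each library gave 1 to 19 members in brain at 24 h, 0 to 1 in brain against 0.5 h, 1 to 2 in meninges at 24 h, 0 to 10 in skull at 0.5 h, 2 to 9 in skull at 24 h, 2 to 12 in skull against 0.5 h, 47 to 50 in untreated meninges and 49 to 57 in untreated skull against brain, 13 to 25 between them, 0 to 1 for meninges minus brain and 1 to 7 for skull minus brain. The change of the mitochondrial to nuclear ratio in brain at 24 h was 0.18 from sums and 0.47 from medians over members; leaving out 1 library, an alternative added after seeing the data like that of members with few shared windows, gave -0.05 to 0.31. Reversed under the offsets were mt-Nd3 (0.12) and mt-Nd6 (0.0050) in untreated skull against brain and mt-Nd6 in untreated meninges against brain (0.47). Of 1344 single values under an alternative, over the members named by p or fold the mitochondrial members that passed between untreated tissues, mt-Nd6 at 24 h and the mitochondrial percentages, 1119 kept direction and side of the threshold, 213 lost the call, 9 gained it and 3 reversed. The causes were not tested. The replicate numbers met no rule for pairing: over pairs of groups, the lowest correlation of same-numbered libraries was -0.31 to 0.03 within a tissue and -0.09 to 0.04 across tissues. Whether tissues share a mouse is not in the labels; in the 27-library fit the replicate block gave 54, 55 and 22 members between untreated tissues and 1, 5 and 0 for the differences.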
